A study of Mus musculus with 24 samples.

Results

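Choline is built into phosphatidylcholine, the main phospholipid of mammalian membranes, by the choline branch of the Kennedy pathway. The 7 genes followed here act in this branch and in choline uptake: *Chka*, *Chkb*, *Pcyt1a*, *Pcyt1b*, *Chpt1*, *Slc44a1* and *Slc44a2*. They were chosen by symbol, 7 of the 55401 genes in each of 3 count tables, and all 7 were found in every table. The tables hold RNA-seq counts of 24 libraries in 11 groups of cultured mouse pancreatic ductal adenocarcinoma (PDAC) cells.

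Cells of 3 sets were studied. KPsh cells carry a doxycycline-inducible hairpin against *Trp53*, the gene of p53, which holds p53 down while the drug is present and lets it return after withdrawal. They were kept off doxycycline (off-dox, n = 3) or on it (on-dox, 1 µg/ml, n = 3) for 10 days. KPnull cells, which serve as a p53-ON system, carried an inducible vector with wild-type p53 (p53WT), with p53 mutated in its first transactivation domain (TAD1m), its second (TAD2m) or both (TAD12m), or with no cDNA (vector), n = 2 each. Per the growth protocol, 1 µg/ml doxycycline was given to KPnull cells 48 hours before harvest. The design text reads as if some cultures went without it, and the library labels do not give it. In the last set, KPsh cells with a *Pcyt2* knockout (sgPcyt2), and the same cells with a guide-resistant *Pcyt2* cDNA added back (sgPcyt2+Pcyt2-cDNA), were kept off-dox or on-dox for 6 days, n = 2 each. *Pcyt2* makes CDP-ethanolamine in the sister branch of the pathway. In KPsh cells doxycycline and p53 change together, and their parts in a difference cannot be told apart.

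The branch works in a chain. Choline carriers, among them *Slc44a1* and *Slc44a2*, bring choline across membranes. The choline kinases *Chka* and *Chkb* phosphorylate it. *Pcyt1a* and *Pcyt1b* encode the enzymes (CTP:phosphocholine cytidylyl transferases) that turn phosphocholine into CDP-choline, the step held to set the pace of the branch. *Chpt1* encodes cholinephosphotransferase, which moves phosphocholine onto diacylglycerol. *Pcyt1b* is known as the less widely expressed of this pair.

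The labels were checked first. *Trp53* RNA was 258 ± 5.85 CPM (library counts scaled to a common total, SD) in KPsh off-dox cells and 21.1 ± 0.721 CPM in KPsh on-dox cells. KPnull cells had 668 CPM for p53WT, 638 CPM for TAD1m, 527 CPM for TAD2m and 566 CPM for TAD12m, against 5.33 CPM for vector. In the *Pcyt2* set it was 41.9 ± 0.317 CPM off-dox and 20.9 ± 2.49 CPM on-dox in sgPcyt2 cells, and 92.0 ± 7.36 CPM off-dox and 19.8 ± 0.646 CPM on-dox in sgPcyt2+Pcyt2-cDNA cells. *Pcyt2* RNA was 19.5 CPM off-dox and 28.5 CPM on-dox in sgPcyt2 cells, against 2197 and 2612 CPM with the cDNA. These levels check the presence of the cDNA, not the guide's edit, which can leave transcript behind. Library totals ran from 9393966.5 to 19431249.5 counts. Summed ductal markers (8 genes) were between 5006 and 13002 CPM in every library, and higher off-dox (12321 to 13002 CPM in KPsh cells) than on-dox (6796 to 7092 CPM). Of the 8 ductal markers, 1 in the KPsh table and 2 in each of the other tables stayed below 1 CPM in every library. The highest was *Krt8* in the KPsh and *Pcyt2* tables and *Krt18* in the KPnull table. The part of these markers in the results was not tested. Of the other cell types, fibroblast, immune, endothelial, acinar and endocrine marker lists summed to at most 9.84 CPM, with *Adgre1* at 0 in all libraries.

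The genes lie on different chromosomes. The counted transcripts, in mm10, are *Chka* at chr19:3851810-3894367, *Chkb* at chr15:89426360-89429860, *Pcyt1a* at chr16:32430924-32475070 and *Pcyt1b* at chrX:93675102-93749951. *Chpt1* is at chr10:88472817-88503970, *Slc44a1* at chr4:53440671-53567818 and *Slc44a2* at chr9:21320698-21355028. *Chkb* and *Chpt1* are on the minus strand, the others on the plus strand. Reads were counted over exons of 1 transcript a gene on both strands, which limits some of the values. For *Chka* and *Chkb* that transcript is annotated as a retained-intron form, with 54.5% and 80.9% of its bases in exons of protein-coding transcripts. Of the *Chkb* exon bases, 83.2% also lie in exons of *Gm44502* (same strand) or *C730034F03Rik* (opposite strand), so reads of these genes cannot be told apart from reads of *Chkb*. The overlap was 11.8% for *Pcyt1a* (with *Slc51a*), 10.8% for *Chpt1* (with *Sycp3*), and under 2% for the remaining members.

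The promoters of the 3 members that rose with wild-type p53 (*Chka*, *Pcyt1a* and *Slc44a2*) and of the 1 that fell (*Slc44a1*) are shown because the groups below divide by these genes. Each is the 250 bases before the RefSeq start nearest to the counted transcript (GRCm38.p6, plus strand), 5′ to 3′. Capitals mark the motifs CCAAT and GGGCGG, the binding motifs of NF-Y and of Sp1-type factors, on either strand (ATTGG and CCGCCC), with overlapping matches counted separately. The windows are chr19:3851523-3851772 for *Chka*, chr16:32430671-32430920 for *Pcyt1a*, chr9:21320469-21320718 for *Slc44a2* and chr4:53440166-53440415 for *Slc44a1*.
Chka: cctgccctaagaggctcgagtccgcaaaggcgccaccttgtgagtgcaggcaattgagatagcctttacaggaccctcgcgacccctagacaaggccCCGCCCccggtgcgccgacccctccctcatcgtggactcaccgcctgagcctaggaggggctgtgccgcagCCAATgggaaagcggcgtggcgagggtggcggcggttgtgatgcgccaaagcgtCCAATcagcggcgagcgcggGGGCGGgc
Pcyt1a: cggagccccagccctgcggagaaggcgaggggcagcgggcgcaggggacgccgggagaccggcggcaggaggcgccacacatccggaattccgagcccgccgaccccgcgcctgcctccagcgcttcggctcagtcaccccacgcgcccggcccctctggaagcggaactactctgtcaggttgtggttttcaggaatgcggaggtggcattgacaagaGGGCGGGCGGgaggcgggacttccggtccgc
Slc44a2: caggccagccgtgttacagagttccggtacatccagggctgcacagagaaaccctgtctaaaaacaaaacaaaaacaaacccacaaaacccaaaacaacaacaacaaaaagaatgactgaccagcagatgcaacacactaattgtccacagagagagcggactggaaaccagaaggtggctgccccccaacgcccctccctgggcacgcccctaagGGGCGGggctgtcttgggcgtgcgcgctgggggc
Slc44a1: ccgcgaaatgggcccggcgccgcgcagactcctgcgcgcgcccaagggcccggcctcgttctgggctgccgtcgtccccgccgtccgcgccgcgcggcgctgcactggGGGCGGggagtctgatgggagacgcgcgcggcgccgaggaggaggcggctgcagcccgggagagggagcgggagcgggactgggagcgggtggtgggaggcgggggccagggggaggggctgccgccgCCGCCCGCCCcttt

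*Chka* held 2 CCAAT and 2 GGGCGG motifs, *Pcyt1a* 2 GGGCGG motifs that overlap, *Slc44a2* 1 GGGCGG and *Slc44a1* 3 GGGCGG motifs. CCAAT was absent from the last 3 windows. Among 32851 promoter windows of the same length, 33.9% held CCAAT and 32.7% held GGGCGG. The p53 consensus decamer, searched on both strands, matched none of the 7 members' windows and 7.13% of all windows. A missing match says only that these letters are not in this window.

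Levels per kb of counted transcript, which let genes be compared, put *Chka* first in all 3 tables. It ranged from 47.9 to 129 CPM per kb over the 24 libraries. *Pcyt1a* followed, between 20.7 and 61.2 CPM per kb. The carriers lay lower, *Slc44a2* between 13.4 and 31.3 and *Slc44a1* between 10.7 and 31.2 CPM per kb. *Chkb* ranged from 11.5 to 19.3 and *Chpt1* from 1.96 to 14.8 CPM per kb. *Pcyt1b* never exceeded 0.492 CPM per kb, or 2.40 CPM. It passed the filter on low counts in the KPsh and *Pcyt2* tables and failed it in the KPnull table, where it had 3 to 11 counts a library and was not tested. In the *Pcyt2* set only the sgPcyt2 on-dox libraries (31.5 and 14 counts) carried it past the filter, beside 0 to 8 counts in the others. In KPsh cells the off-dox libraries (20 to 26 counts) carried it, beside 7 to 13 counts on-dox. Its tests therefore depend on the group where it is high.

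**Figure D1:**
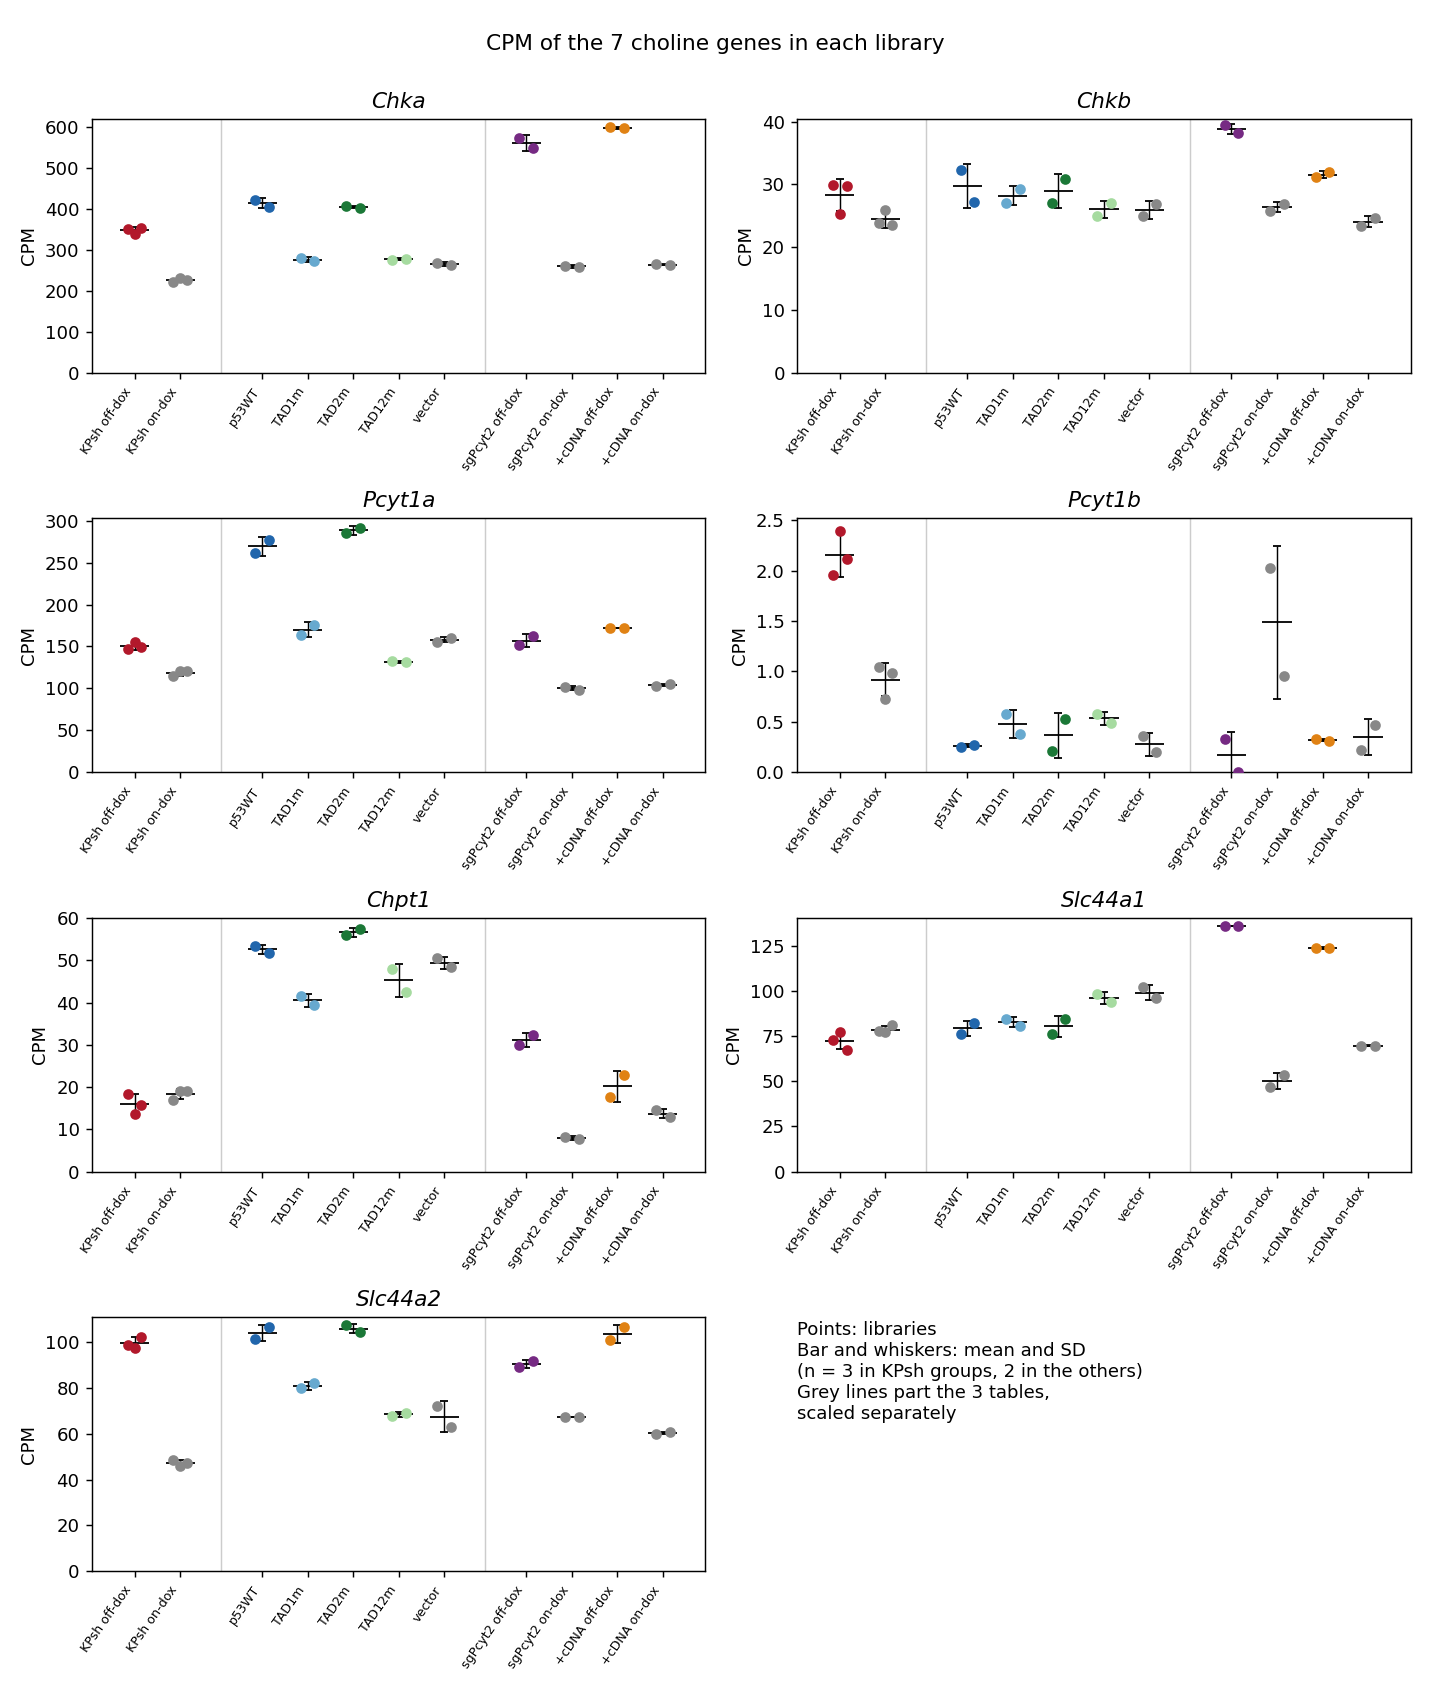
CPM of each of the 7 genes (y axis, linear, from 0) in each library (points) of the 11 groups (x axis), with group means (bars) and SD (whiskers); n = 3 in KPsh groups and 2 in the others. *Chka*, *Pcyt1a* and *Slc44a2* stand higher with p53WT and TAD2m than with vector, while *Slc44a1* and *Chpt1* are higher off-dox than on-dox in the *Pcyt2* set and not in KPsh cells.

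The first comparison asks what p53 return over 10 days did to the branch in KPsh cells. *Slc44a2*, *Chka* and *Pcyt1a* rose, as did the rare *Pcyt1b*, while *Slc44a1* and *Chpt1* did not pass the test. Differences are log2 changes with the SE of edgeR's quasi-likelihood fit, with p-values adjusted over all genes of the table and called below 0.05. Of the 7 members, 5 were higher off-dox, where 33.1% of 13990 tested genes were called higher, and 0 were lower, where 31.7% of genes were. All 7 had 7 or more counts in each library. The members' median log2 change was 0.34, against 0.01 over all genes tested. In these bulk cultures, more expressing cells and more RNA per cell cannot be told apart.

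*Chka* stood at 350, 338 and 353 CPM in KPsh off-dox cells, against 222, 232 and 225 CPM in KPsh on-dox cells. The off-dox libraries all lay above the on-dox ones, and the log2 change was 0.62 ± 0.05 (adjusted p = 8.05e-10). *Chkb*, the second kinase, was at 29.9, 25.3 and 29.7 CPM off-dox, against 23.8, 25.99 and 23.6 CPM on-dox. Its groups overlapped. The log2 change of 0.22 ± 0.09 passed narrowly (adjusted p = 0.0454), and that call was lost under 10 of 12 alternative settings, including DESeq2 (adjusted p = 0.121). Among these, it was lost without off-dox replicate 1 (adjusted p = 0.137), off-dox replicate 3 (0.136), or on-dox replicate 1 (0.146), 2 (0.0533) or 3 (0.164).

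*Pcyt1a* had 147, 155 and 150 CPM off-dox, against 115, 121 and 120 CPM on-dox. Every off-dox library was above every on-dox library, with a log2 change of 0.34 ± 0.06 (adjusted p = 1.36e-05). *Pcyt1b* rose by 1.20 ± 0.30 (adjusted p = 9.87e-04), from few reads: 1.96, 2.40 and 2.11 CPM off-dox, against 1.04, 0.731 and 0.982 CPM on-dox. *Chpt1* had 18.4, 13.7 and 15.9 CPM off-dox, against 16.9, 19.1 and 19.03 CPM on-dox. Its groups overlapped, and the log2 change was −0.20 ± 0.11 (adjusted p = 0.131). Without off-dox replicate 1, the highest off-dox library, it was −0.30 (adjusted p = 0.035), and without off-dox replicate 2, the lowest, −0.10 (adjusted p = 0.466).

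The carriers parted. *Slc44a2*, which also carries choline into mitochondria in known systems, had the lowest p of the members: 99.0, 97.4 and 102 CPM off-dox, against 48.4, 45.9 and 47.4 CPM on-dox. That is a log2 change of 1.08 ± 0.06 (adjusted p = 2.29e-12), or 2.11-fold. *Slc44a1*, the broadly expressed plasma membrane carrier CTL1, was at 73.0, 77.0 and 67.4 CPM off-dox, against 77.5, 77.0 and 80.8 CPM on-dox. The off-dox libraries were all lower, by a narrow margin, and the log2 change of −0.12 ± 0.07 missed the threshold (adjusted p = 0.127). It passed with plain library totals (log2 −0.17, adjusted p = 0.0303) and without off-dox replicate 2 (log2 −0.16, adjusted p = 0.0479). Summed immune markers moved in the same direction as *Slc44a2*, between 6.75 and 9.47 CPM off-dox against 1.76 to 2.92 CPM on-dox, nearly all of it *Cd68*. Among these markers *Adgre1* and *Cd3e* were at 0 in every KPsh library. Their part in the result was not tested.

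Wild-type p53 in KPnull cells raised *Chka*, *Pcyt1a* and *Slc44a2* and lowered *Slc44a1*. Of the 6 members tested, 3 were higher with p53WT than with vector, where 25.5% of 15075 tested genes were called higher, and 1 was lower, where 25.1% of genes were. The median log2 change of the 6 was 0.41, against −0.01 over all genes tested. The vector and p53WT libraries enter several of the comparisons that follow, so the comparisons are not independent of each other.

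*Chka* was at 421 and 404 CPM with p53WT, against 268 and 262 CPM with vector, a log2 change of 0.64 ± 0.05 (adjusted p = 2.69e-08). *Pcyt1a* was at 262 and 277 CPM with p53WT, against 156 and 161 CPM with vector. Its change of 0.77 ± 0.06 (adjusted p = 9.48e-09) was the largest of the 6 in absolute value. *Slc44a2* was at 102 and 107 CPM with p53WT, against 72.3 and 62.9 CPM with vector, a log2 change of 0.62 ± 0.07 (adjusted p = 1.24e-06). In each of these 3 genes both p53WT libraries lay above both vector libraries.

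*Slc44a1* was at 76.3 and 82.2 CPM with p53WT, against 102 and 96.04 CPM with vector. Both p53WT libraries were lower, with a log2 change of −0.32 ± 0.07 (adjusted p = 8.9e-04). *Chkb* was at 32.2 and 27.3 CPM with p53WT, against 24.96 and 26.95 CPM with vector (log2 0.20 ± 0.10, adjusted p = 0.106). Over 12 alternatives its change ran from 0.07 (adjusted p = 0.665, without p53WT replicate 1) to 0.32 (adjusted p = 0.0349, without p53WT replicate 2), so that it rests on which p53WT library is kept. *Chpt1* was at 53.3 and 51.9 CPM with p53WT, against 50.5 and 48.4 CPM with vector, and its difference of 0.09 ± 0.07 did not pass (adjusted p = 0.341, 95% interval from the SE −0.06 to 0.23). Mitochondrial genes took 3.01% to 3.04% of counts with p53WT and 2.24% to 2.36% with vector, and summed immune markers were 8.41 to 8.52 CPM with p53WT and 2.14 to 2.23 CPM with vector, with *Adgre1* at 0. Summed ductal markers were 7855 to 8378 CPM with p53WT and 5477 to 5895 CPM with vector. Their part in the result was not tested.

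**Figure D2:**
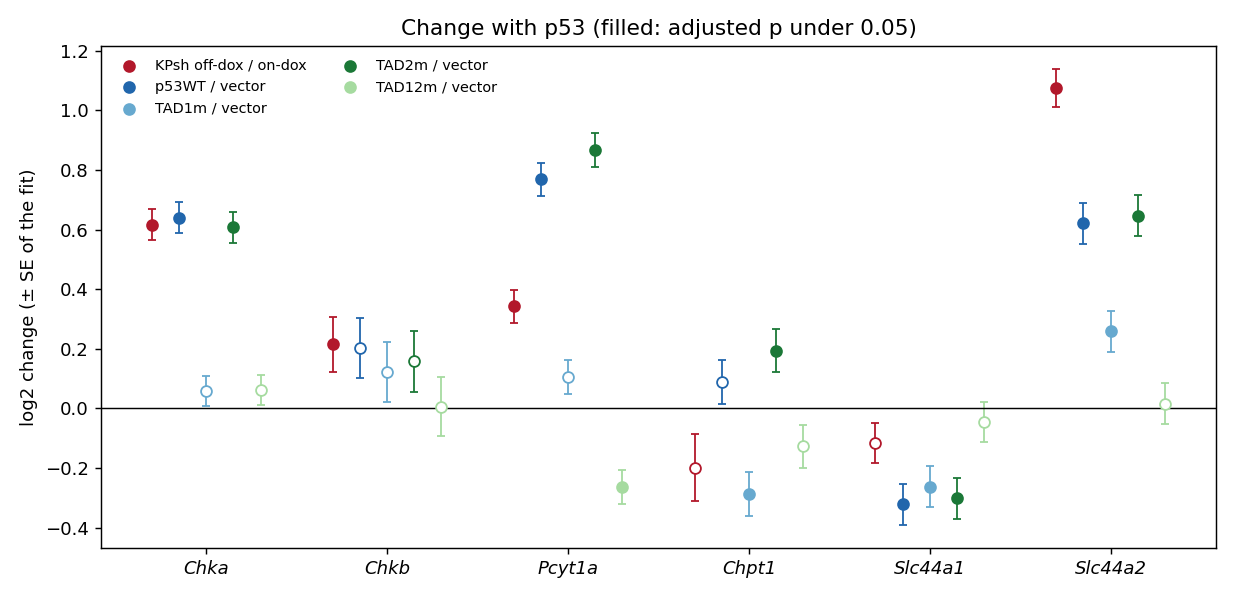
Log2 change (y axis) of the 6 members tested in both tables (x axis), in KPsh off-dox against on-dox cells and in KPnull cells with each p53 form against vector; whiskers are the SE of the fit, and filled points have an adjusted p under 0.05. *Chka* and *Pcyt1a* were called higher with p53WT (0.64 and 0.77) and TAD2m (0.61 and 0.87) and not with TAD1m or TAD12m, where *Pcyt1a* was lower with TAD12m (−0.26).

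The transactivation-domain mutants asked which part of p53 the responses need. With TAD2m, 4 of 6 members were higher than with vector (24.9% of all genes) and 1 was lower (24.2%). *Chka* was at 406 and 401 CPM with TAD2m, and *Pcyt1a* at 285 and 292 CPM. Their changes against vector were 0.61 ± 0.05 (adjusted p = 5.36e-08) and 0.87 ± 0.06 (adjusted p = 2.44e-09). *Slc44a2* was at 107 and 105 CPM with TAD2m, a log2 change of 0.65 ± 0.07 (adjusted p = 8.39e-07). *Slc44a1* was at 76.3 and 84.5 CPM with TAD2m and fell by 0.30 ± 0.07 on the log2 scale (adjusted p = 0.00167). *Chpt1*, at 55.9 and 57.4 CPM with TAD2m, rose by 0.19 ± 0.07 (adjusted p = 0.0379), but that call was lost in 6 of 12 alternatives, among them the omission of either vector library (adjusted p = 0.0645 and 0.14) or either TAD2m library (0.1 and 0.166). Beside these changes, mitochondrial genes took 3.03% to 3.09% of counts with TAD2m and 2.24% to 2.36% with vector. Summed immune markers were 8.46 to 9.84 CPM with TAD2m against 2.14 to 2.23 CPM with vector, and ductal markers 7877 to 8209 CPM against 5477 to 5895 CPM. Their part was not tested.

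Set directly against p53WT, TAD2m differed in 0 of the 6 members by edgeR's quasi-likelihood test, and 0 of them had an unadjusted p under 0.05. DESeq2 also called 0. Over all genes 0.199% were called higher and 0.0862% lower with TAD2m. The 95% intervals of the difference were −0.13 to 0.07 for *Chka*, −0.01 to 0.21 for *Pcyt1a*, −0.11 to 0.16 for *Slc44a2* and −0.12 to 0.16 for *Slc44a1*, on the log2 scale. *Trp53* itself was lower with TAD2m than with p53WT (−0.34, adjusted p = 0.0242).

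TAD1m gave another pattern. *Chka* was at 281 and 271 CPM with TAD1m (log2 0.06 ± 0.05 against vector, adjusted p = 0.407), and *Pcyt1a* was at 164 and 176 CPM (0.10 ± 0.06, adjusted p = 0.168). The 95% intervals were −0.04 to 0.16 for *Chka* and −0.01 to 0.22 for *Pcyt1a*. Summed immune markers were 7.40 to 7.86 CPM with TAD1m, against 2.14 to 2.23 CPM with vector. Ductal markers were 5140 to 5237 CPM with TAD1m, against 5477 to 5895 CPM. Mitochondrial genes took 2.49% to 2.51% of counts, against 2.24% to 2.36%. Their part was not tested. *Slc44a2* rose to 79.8 and 82.3 CPM with TAD1m, a log2 change of 0.26 ± 0.07 against vector (adjusted p = 0.00753). *Slc44a1* was lower, at 84.5 and 80.6 CPM with TAD1m (−0.26 ± 0.07, adjusted p = 0.00623), and so was *Chpt1*, at 41.6 and 39.5 CPM (−0.29 ± 0.07, adjusted p = 0.00627). Thus 1 of 6 members was higher, beside 19% of all genes, and 2 were lower, beside 17.5%. Without TAD1m replicate 2 none of these 3 passed (adjusted p = 0.0764, 0.071 and 0.0667 for *Slc44a2*, *Slc44a1* and *Chpt1*), and without vector replicate 2 *Slc44a2* did not (0.111).

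Against p53WT, TAD1m was lower in 4 of 6 members (18.7% of all genes) and higher in 0 (20.4%). The changes were −0.66 ± 0.06 for *Pcyt1a* (adjusted p = 1.05e-07), −0.58 ± 0.05 for *Chka* (1.64e-07), −0.37 ± 0.07 for *Chpt1* (7.66e-04) and −0.36 ± 0.07 for *Slc44a2* (4.61e-04). All TAD1m libraries of these genes lay below both p53WT libraries. *Slc44a1* did not differ past the threshold (0.06 ± 0.07, adjusted p = 0.543), and its TAD1m and p53WT libraries overlapped.

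With TAD12m only *Pcyt1a* passed the test against vector. It was at 133 and 131 CPM with TAD12m, against 156 and 161 CPM with vector, a log2 change of −0.26 ± 0.06 (adjusted p = 0.0133). So 0 of 6 members were higher (2% of all genes) and 1 was lower (1.85%). It did not hold on leaving out vector replicate 2 (adjusted p = 0.0846) or when only the TAD12m and vector libraries were fitted (0.154). *Chka* was at 275 and 278 CPM with TAD12m (log2 0.06 ± 0.05), and *Slc44a2* at 67.8 and 69.2 CPM (0.02 ± 0.07). *Slc44a1* was at 98.3 and 93.6 CPM, a difference of −0.05 ± 0.07 from vector with overlapping libraries.

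TAD12m against p53WT gave 4 of 6 members lower (25.6% of all genes) and 1 higher (25.5%). The changes were −1.03 ± 0.06 for *Pcyt1a* (adjusted p = 3.52e-10), −0.60 ± 0.07 for *Slc44a2* (1.64e-06) and −0.58 ± 0.05 for *Chka* (9.02e-08). *Slc44a1* was higher by 0.28 ± 0.07 (adjusted p = 0.003). *Chpt1*, at 48.1 and 42.5 CPM with TAD12m, fell by 0.22 ± 0.07 (adjusted p = 0.0218), a call lost in 6 of 12 alternatives: without p53WT replicate 1 (0.115) or 2 (0.0525), without TAD12m replicate 2 (0.186), with DESeq2 (0.0654), with plain totals (0.0677) and with only these groups fitted (0.0511). *Chkb* passed no comparison among KPnull groups. Without p53WT replicate 2 it passed against p53WT in TAD12m cells (log2 −0.31, adjusted p = 0.0373).

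In the *Pcyt2* set every member but *Pcyt1b* was higher off-dox, in sgPcyt2 cells and with the cDNA alike. In sgPcyt2 cells 6 of 7 members were higher off-dox than on-dox, where 39.2% of 14916 tested genes were called higher, and 1 was lower, where 37.1% were. In sgPcyt2+Pcyt2-cDNA cells 6 of 7 were higher (37.3% of all genes) and 0 lower (36.3%). The median log2 changes of the members were 0.65 and 0.73, against 0.02 over all genes tested in each comparison.

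*Chka* was at 573 and 547 CPM off-dox, against 261 and 257 CPM on-dox in sgPcyt2 cells, and at 599 and 595 CPM off-dox, against 264 and 263 CPM on-dox, with the cDNA. The log2 changes were 1.11 ± 0.04 (adjusted p = 1.16e-28) and 1.18 ± 0.04 (1.16e-29). *Chkb* was at 39.4 and 38.2 CPM off-dox, against 25.8 and 26.9 CPM on-dox in sgPcyt2 cells (0.56 ± 0.08, adjusted p = 1.62e-08). With the cDNA it was at 31.2 and 31.9 CPM off-dox, against 23.4 and 24.7 CPM on-dox (0.39 ± 0.08, adjusted p = 3.77e-05). For both kinases every off-dox library was above every on-dox library of its own cell state.

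*Pcyt1a* was at 151 and 162 CPM off-dox, against 102 and 98.5 CPM on-dox in sgPcyt2 cells (0.65 ± 0.05, adjusted p = 8.63e-17). With the cDNA it was at 172 CPM in both off-dox libraries, against 103 and 105 CPM on-dox (0.73 ± 0.05, adjusted p = 7.78e-19). *Slc44a2* was at 89.4 and 92.0 CPM off-dox, against 67.5 and 67.6 CPM on-dox in sgPcyt2 cells (0.43 ± 0.05, adjusted p = 1.71e-09). It was at 101 and 107 CPM off-dox, against 59.98 and 60.8 CPM on-dox, with the cDNA (0.78 ± 0.05, adjusted p = 1.08e-17).

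*Slc44a1* and *Chpt1*, which had not risen in the 10-day KPsh cells, rose here. *Slc44a1* was at 136 CPM in both off-dox libraries, against 46.8 and 53.1 CPM on-dox in sgPcyt2 cells, a log2 change of 1.44 ± 0.06 (adjusted p = 2.33e-27). With the cDNA it was at 124 and 123 CPM off-dox, against 69.7 and 69.4 CPM on-dox (0.83 ± 0.05, adjusted p = 6.63e-19). *Chpt1* showed the largest rise, at 29.9 and 32.4 CPM off-dox, against 8.28 and 7.61 CPM on-dox in sgPcyt2 cells, 3.91-fold (log2 1.97 ± 0.13, adjusted p = 1.17e-19). With the cDNA it was at 17.6 and 22.8 CPM off-dox, against 14.5 and 12.9 CPM on-dox (0.57 ± 0.11, adjusted p = 1.73e-05). The sets differ in days off doxycycline, in the knockout and in sequencing table. They also differ in *Trp53* RNA, which rose off-dox by log2 3.61 in KPsh cells, 1.00 in sgPcyt2 cells and 2.21 with the cDNA. The difference between sets was not tested.

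*Pcyt1b* ran the other way in sgPcyt2 cells, at 0.333 and 0 CPM off-dox, against 2.02 and 0.951 CPM on-dox. The fitted log2 change of −3.07 ± 0.78 (adjusted p = 1.6e-05) rests on 5 counts in 1 off-dox library and 0 in the other, and on 31.5 and 14 counts on-dox. It ran from −7.53 without off-dox replicate 1, which leaves only the library at 0, to −2.17 without off-dox replicate 2, and its adjusted p was at most 0.00504 over 11 alternatives. With a library at 0 the fitted value depends on the prior count and is no bound. The sgPcyt2 on-dox libraries alone brought *Pcyt1b* past the filter, so the test of this change is not independent of that choice. With the cDNA *Pcyt1b* did not pass (−0.17 ± 0.73, adjusted p = 0.84). Mitochondrial genes took 3.31% to 3.51% of counts off-dox, against 1.86% to 1.98% on-dox, in sgPcyt2 cells, and 3.33% to 3.34% against 1.96% to 2% with the cDNA. Summed endothelial markers, nearly all *Cdh5*, were between 6.67 and 8.27 CPM off-dox and 2.24 and 2.78 CPM on-dox in sgPcyt2 cells, and 6.67 to 7.22 CPM off-dox and 0.662 to 0.826 CPM on-dox with the cDNA, with *Kdr* at 0. The part of either in the rises was not tested.

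**Figure D3:**
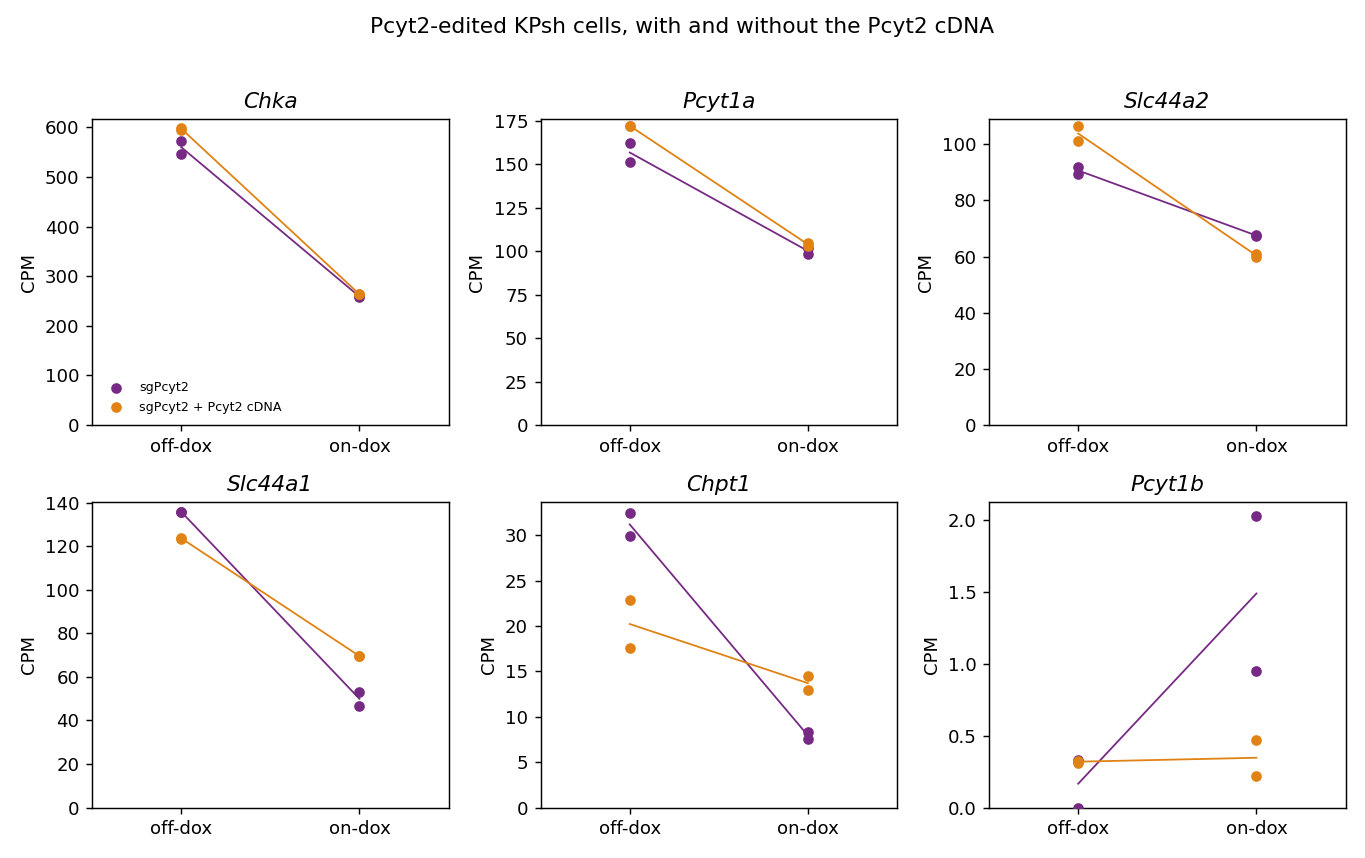
CPM (y axis, from 0) of 6 members off-dox and on-dox (x axis) in sgPcyt2 cells (purple) and in sgPcyt2+Pcyt2-cDNA cells (orange); points are libraries, n = 2 each, and lines join the group means. The lines run close together for *Chka* and *Pcyt1a* and cross for *Slc44a1*, *Slc44a2*, *Chpt1* and *Pcyt1b*.

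At fixed doxycycline, sgPcyt2 cells were set against sgPcyt2+Pcyt2-cDNA cells. The cDNA cells held far more *Pcyt2* RNA (2612 CPM on-dox and 2197 CPM off-dox) than KPsh cells of the first set (109 CPM on-dox and 86.3 CPM off-dox), and the set has no unedited cells. Loss of *Pcyt2* and its excess in the cDNA cells therefore cannot be told apart. On doxycycline *Slc44a1* and *Chpt1* were lower in sgPcyt2 than in sgPcyt2+Pcyt2-cDNA cells. The log2 differences were −0.48 ± 0.06 (adjusted p = 1.48e-08) and −0.78 ± 0.14 (adjusted p = 1.91e-05). For both genes the sgPcyt2 libraries given above all lay below the cDNA libraries. *Pcyt1b* was higher by 2.04 ± 0.57 (adjusted p = 0.0025), a call lost without sgPcyt2 replicate 1 (0.18) or cDNA replicate 1 (0.0649). *Slc44a2* was higher by 0.16 ± 0.06 (adjusted p = 0.0413). That call was lost with DESeq2 (0.146), without sgPcyt2 replicate 1 or 2 (0.125 each) and without cDNA replicate 1 (0.18) or 2 (0.15). So 2 of 7 members were higher (8.4% of all genes) and 2 lower (10%). Among the higher, *Pcyt1b* was tested only because these sgPcyt2 libraries brought it past the filter. *Chka* differed by −0.03 ± 0.04 (95% interval −0.10 to 0.05) and *Pcyt1a* by −0.05 ± 0.05 (−0.15 to 0.04), neither past the threshold. The p53 targets *Cdkn1a* (log2 0.56, adjusted p = 1.82e-11) and *Mdm2* (0.16, adjusted p = 0.0107) were higher in these sgPcyt2 on-dox cells. *Trp53* RNA did not differ past the threshold (0.08, adjusted p = 0.636). The part of p53 activity in the on-dox differences was not tested.

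Off doxycycline *Chpt1* was higher in sgPcyt2 than in sgPcyt2+Pcyt2-cDNA cells by 0.62 ± 0.10 (adjusted p = 1.92e-06), and *Chkb* by 0.30 ± 0.08 (0.0016). *Slc44a1* was higher by 0.13 ± 0.05 (adjusted p = 0.029), lost with DESeq2 (0.14), without the filter on low counts (0.0807) and on leaving out any 1 of the 4 libraries (0.0835 to 0.153). *Slc44a2* was lower (−0.20 ± 0.05, adjusted p = 0.00217), which missed the threshold without cDNA replicate 2 (0.0559). *Pcyt1a* was lower (−0.14 ± 0.05, adjusted p = 0.0158), lost with DESeq2 (0.0908), without sgPcyt2 replicate 1 (0.249) and without cDNA replicate 1 (0.0666) or 2 (0.0655). *Chka* missed the threshold at −0.09 ± 0.04 (adjusted p = 0.0538), but passed without the low-count filter (0.0334) and without sgPcyt2 replicate 1 (0.0166). *Pcyt1b* did not pass (−0.86 ± 0.90, adjusted p = 0.48), and its libraries overlapped. So 3 of 7 members were higher (16.3% of all genes) and 2 lower (16.8%). *Trp53* was also lower in these sgPcyt2 cells, with a log2 difference of −1.13 (adjusted p = 5.93e-19), so that *Pcyt2* state and p53 level moved together. Their parts cannot be told apart.

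The interaction, the off-dox change in sgPcyt2 cells minus that in sgPcyt2+Pcyt2-cDNA cells, tested whether the response differed between these cells. It was called in 4 of 7 members: 2 higher, where 12.8% of all genes were, and 2 lower, where 12.4% were. Among the lower, *Pcyt1b* had passed the filter only through its sgPcyt2 on-dox libraries. *Chpt1* responded more in sgPcyt2 than in sgPcyt2+Pcyt2-cDNA cells, by 1.40 ± 0.17 (adjusted p = 5.27e-09), and *Slc44a1* by 0.61 ± 0.08 (1.38e-08). *Slc44a2* responded less (−0.36 ± 0.08, adjusted p = 3.01e-04). These 3 calls held in all 14 alternatives. *Pcyt1b*, at −2.90 ± 1.07 (adjusted p = 0.028), lost its call in 5 of the 13 alternatives that gave it a value: without sgPcyt2 on-dox replicate 1 (0.137), sgPcyt2 off-dox replicate 2 (0.146), cDNA on-dox replicate 1 (0.0963) and cDNA off-dox replicate 1 (0.0967) or 2 (0.0866). *Chka*, *Pcyt1a* and *Chkb* did not pass, with 95% intervals of −0.18 to 0.04, −0.21 to 0.05 and −0.05 to 0.39. *Trp53* also responded less in sgPcyt2 cells (log2 1.00) than with the cDNA (2.21), an interaction of −1.21 (adjusted p = 9.66e-12). The parts of *Pcyt2* loss, *Pcyt2* excess and p53 level in these differences cannot be told apart.

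Across all 11 groups the order of levels differed between members. *Chka* was highest in sgPcyt2+Pcyt2-cDNA off-dox cells (597 ± 2.70 CPM) and sgPcyt2 off-dox cells (560 ± 18.5 CPM), and lowest in KPsh on-dox cells (226 ± 5.08 CPM). Neighbouring groups p53WT and TAD2m overlapped, as did TAD12m and TAD1m. *Pcyt1a* was highest with TAD2m (288 ± 4.87 CPM) and p53WT (269 ± 11.1 CPM) and lowest in sgPcyt2 on-dox cells (100.1 ± 2.24 CPM). *Slc44a2* was highest with TAD2m (106 ± 1.99 CPM), where it overlapped p53WT, sgPcyt2+Pcyt2-cDNA off-dox and KPsh off-dox cells in turn, and lowest in KPsh on-dox cells (47.2 ± 1.26 CPM).

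*Slc44a1* spanned sgPcyt2 off-dox cells (136 ± 0.202 CPM) to sgPcyt2 on-dox cells (49.9 ± 4.52 CPM), with p53WT, TAD1m and TAD2m overlapping in between. *Chpt1* stood highest in the 5 KPnull groups, from 56.6 ± 1.01 CPM with TAD2m to 40.6 ± 1.49 CPM with TAD1m, and lowest in sgPcyt2 on-dox cells (7.94 ± 0.470 CPM). *Chkb* moved little, from 38.8 ± 0.833 CPM in sgPcyt2 off-dox cells to 24.1 ± 0.865 CPM in sgPcyt2+Pcyt2-cDNA on-dox cells, and most neighbours overlapped. *Pcyt1b* was highest in KPsh off-dox cells (2.16 ± 0.224 CPM) and lowest in sgPcyt2 off-dox cells (0.167 ± 0.236 CPM). Levels in different tables were scaled separately and come from different cells, so differences across tables carry no test.

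Ratios within a library compare paralogues without a scaling between libraries. *Slc44a2* over *Slc44a1*, each per kb, was 1.75 ± 0.164 in KPsh off-dox cells and 0.763 ± 0.0254 in KPsh on-dox cells. It was 1.67 ± 0.0310 for p53WT, 1.25 ± 0.0687 for TAD1m, 1.68 ± 0.153 for TAD2m and 0.905 ± 0.0450 for TAD12m, against 0.864 ± 0.0484 for vector. In sgPcyt2 cells the order was turned, with 0.846 ± 0.0183 off-dox and 1.72 ± 0.154 on-dox. With the cDNA the ratio was 1.06 ± 0.0430 off-dox and 1.10 ± 0.0135 on-dox.

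*Chka* over *Chkb*, per kb, was 5.44 ± 0.397 in KPsh off-dox cells and 4.09 ± 0.141 in KPsh on-dox cells. In KPnull cells it was 6.16 ± 0.549 for p53WT, 4.33 ± 0.341 for TAD1m, 6.19 ± 0.627 for TAD2m and 4.70 ± 0.207 for TAD12m, against 4.52 ± 0.314 for vector. It was 6.37 ± 0.0737 off-dox and 4.34 ± 0.176 on-dox in sgPcyt2 cells, and 8.36 ± 0.176 and 4.84 ± 0.187 with the cDNA. The *Chka* and *Chkb* lengths are those of the retained-intron transcripts described above, which bears on the height of this ratio. Reads of *Gm44502* and *C730034F03Rik* counted toward *Chkb*, and retained-intron reads counted toward *Chka*, may also change its course between groups. Their part was not tested.

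**Figure D4:**
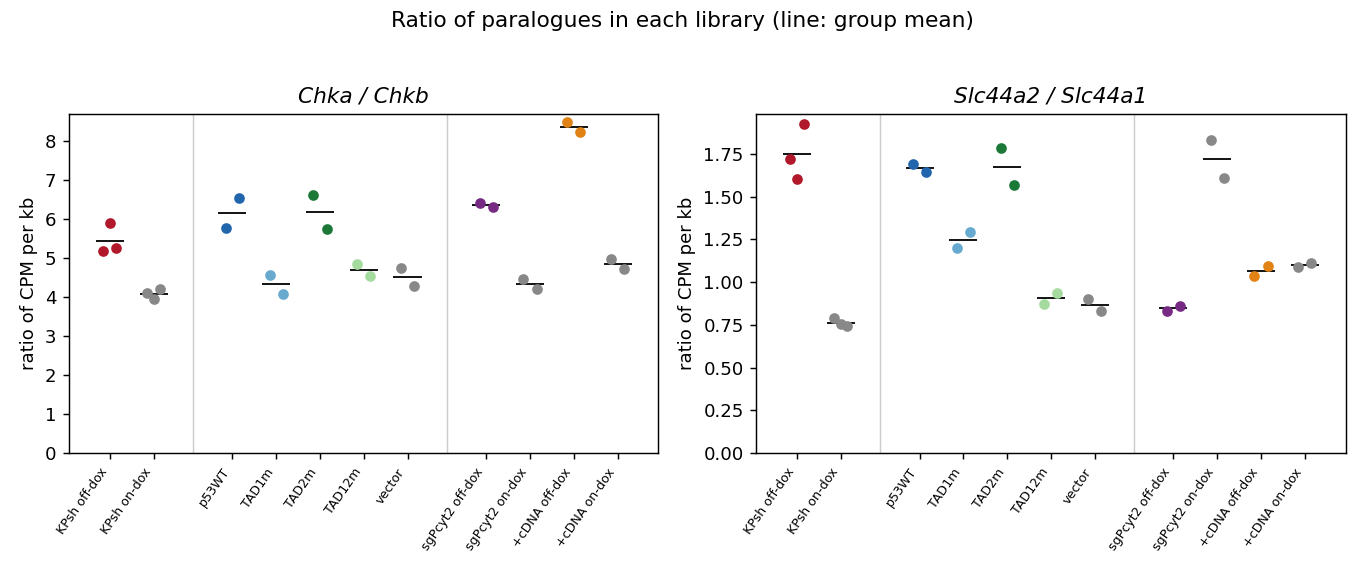
Ratio of CPM per kb (y axis, from 0) of *Chka* over *Chkb* (left) and *Slc44a2* over *Slc44a1* (right) in each library (points) by group (x axis), with group means (lines); n = 3 in KPsh groups and 2 in the others. The carrier ratio is 1.75 off-dox and 0.763 on-dox in KPsh cells, and 0.846 off-dox and 1.72 on-dox in sgPcyt2 cells.

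The 56 related genes of 5 lists set the branch in its surroundings. The counts of each list stand beside the shares over all genes given above, which were 33.1% higher and 31.7% lower in KPsh off-dox cells and 25.5% higher and 25.1% lower with p53WT. Nothing particular to a list is read from a count near its share. Of 9 other headgroup synthesis enzymes, 2 were higher and 3 lower in KPsh off-dox than on-dox cells. *Selenoi* (ethanolaminephosphotransferase) fell by 0.74 ± 0.06, *Etnk1* (ethanolamine kinase) by 0.39 ± 0.06 and *Pcyt2* by 0.34 ± 0.06 on the log2 scale. *Cept1*, which makes both phosphatidylcholine and phosphatidylethanolamine, rose by 0.20 ± 0.08. In the *Pcyt2* set *Etnk1* went the other way, higher off-dox in sgPcyt2 cells (0.77 ± 0.04) and with the cDNA (0.55 ± 0.04). *Selenoi* stood there at 168 CPM off-dox and 152 CPM on-dox in sgPcyt2 cells, and at 157 and 158 CPM with the cDNA. With p53WT against vector 2 of the 9 were higher and 4 lower, with *Selenoi* at −0.50 ± 0.06, *Pcyt2* at −0.27 ± 0.08 and *Pemt*, which methylates phosphatidylethanolamine to phosphatidylcholine, at −0.66 ± 0.16. *Pisd*, which makes phosphatidylethanolamine from phosphatidylserine, went the other way, at 0.51 ± 0.08 (adjusted p = 5.38e-05). The medians were −0.05 in KPsh and 0.03 with p53WT, against 0.01 and −0.01 over all genes.

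Other choline carriers were mostly silent, with 4 of 11 tested in the KPsh table and 5 of 11 in the KPnull table. *Flvcr1*, a choline carrier of the plasma membrane, fell in KPsh off-dox cells (log2 −0.93 ± 0.09, adjusted p = 7.01e-09) and with p53WT (−0.43 ± 0.09, adjusted p = 0.00101). *Slc44a4* was the 1 carrier higher in KPsh off-dox cells (1.00 ± 0.36) and *Slc44a3* the 1 higher with p53WT (1.48 ± 0.28), both named after their values were seen. Both genes were low: *Slc44a4* stood at 1.36 CPM off-dox and 0.677 CPM on-dox in KPsh cells. *Slc44a3* stood at 3.95 CPM with p53WT and 1.38 CPM with vector. The list medians were 0.19 and 0.02. *Slc22a4*, an organic cation carrier, was lower in sgPcyt2 than sgPcyt2+Pcyt2-cDNA cells on-dox (−1.04 ± 0.23) and higher off-dox (1.08 ± 0.13), as *Chpt1* was. On-dox 0 of 4 tested carriers were higher (8.4% of all genes) and 2 lower (*Flvcr1* and *Slc22a4*; 10% of all genes). Off-dox 2 were higher (*Slc22a4* and *Slc44a4*; 16.3%) and 0 lower (16.8%).

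Of the 6 choline oxidation genes 2 passed the filter in each table. Both, *Aldh7a1* and *Sardh*, were higher in KPsh off-dox cells and with p53WT, with medians of 1.37 and 1.09 over these 2 genes. *Sardh* was low, at 3.93 CPM off-dox and 0.817 CPM on-dox in KPsh cells. It was at 5.84 CPM with p53WT and 2.82 CPM with vector. *Chdh*, at 0.0326 CPM in KPsh off-dox cells and 0.0939 CPM with p53WT, failed the filter, as did *Bhmt*, *Bhmt2* and *Dmgdh*. *Aldh7a1*, which oxidises betaine aldehyde, rose by 0.48 ± 0.08 in KPsh off-dox cells and by 1.14 ± 0.06 with p53WT. Of genes of phosphatidylcholine turnover and choline release, 11 of 16 tested were higher and 2 lower in KPsh off-dox cells (median 0.32), and 9 of 18 were higher and 0 lower with p53WT (median 0.28). The shares over all genes were 33.1% and 31.7% in KPsh cells and 25.5% and 25.1% with p53WT. *Gdpd5*, which splits glycerophosphocholine, rose by 2.83 ± 0.21 and 1.72 ± 0.11, *Plaat3*, a phospholipase A and acyltransferase, by 3.47 ± 0.26 and 1.67 ± 0.12, and *Pld3*, of the phospholipase D family, by 1.62 ± 0.11 and 1.20 ± 0.12.

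In the remodelling and sphingomyelin list 4 of 9 tested were higher and 2 lower in KPsh off-dox cells (median 0.07), and 5 of 10 higher and 2 lower with p53WT (median 0.17), beside the same shares over all genes (33.1% and 31.7%, 25.5% and 25.1%). *Smpd1*, the lysosomal sphingomyelinase, rose by 0.47 ± 0.08 and 0.71 ± 0.10, and *Smpd4*, a neutral sphingomyelinase, fell by 0.75 ± 0.06 and 0.60 ± 0.06. Between sgPcyt2 and sgPcyt2+Pcyt2-cDNA cells 1 of 9 tested genes of this list was higher and 3 lower on-dox (8.4% and 10% of all genes), and 2 were higher and 3 lower off-dox (16.3% and 16.8%). *Sgms2*, a sphingomyelin synthase, had the largest on-dox difference of the list, at 0.95 ± 0.05 (adjusted p = 1.42e-19), and was lower off-dox (−0.12 ± 0.04, adjusted p = 0.0327). *Smpd3*, another neutral sphingomyelinase, was lower on-dox (−0.51 ± 0.04, adjusted p = 7.57e-13) and higher off-dox (1.31 ± 0.04, adjusted p = 1.81e-27). The interaction was −1.07 ± 0.07 for *Sgms2* (adjusted p = 2.83e-17). *Smpd3* went the other way. It was at 242 CPM off-dox against 124 CPM on-dox in sgPcyt2 cells, and at 97.5 against 177 CPM with the cDNA. *Lpcat1*, a lysophosphatidylcholine acyltransferase, was lower at both (−0.36 ± 0.09 on-dox and −0.44 ± 0.13 off-dox). Of 16 tested turnover genes, 0 were higher and 2 lower on-dox (8.4% and 10% of all genes), and 5 were higher and 3 lower off-dox (16.3% and 16.8%). Among them *Pnpla7*, a lysophospholipase, was lower on-dox (−0.60 ± 0.13, adjusted p = 4.67e-04) and higher off-dox (0.46 ± 0.10, adjusted p = 1.37e-04), while *Pla2g4a*, a cytosolic phospholipase A, was lower off-dox (−0.39 ± 0.07, adjusted p = 6.54e-06). The list genes were chosen with results of these data known.

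The courses of the members over the 24 libraries, as log2(CPM + 1) minus the mean of each table, are given as descriptions. All pairs share their libraries and the p53 contrasts. Pearson's r was 0.87 between *Chka* and *Pcyt1a*, 0.86 between *Chka* and *Slc44a2*, 0.85 between *Slc44a1* and *Chpt1* and 0.23 between *Slc44a1* and *Slc44a2*. The other pairs ran from 0.31 (*Slc44a2* with *Chpt1*) to 0.81 (*Chka* with *Chkb*). Among them *Chka* had 0.70 with *Chpt1* and 0.62 with *Slc44a1*. Among 10027 genes the most alike to *Chka* were *Tmem59* (r = 0.99), *Os9* (0.99) and *Prr13* (0.99), and to *Pcyt1a* *Apob* (0.99), *Ctnnd1* (0.97) and *Paqr7* (0.97). *Slc44a2* was most like *Leprot* (0.99), *Ctxn1* (0.98) and *Mfge8* (0.98), and *Slc44a1* most like *Pgap1* (0.98), *Atp2b1* (0.97) and *Pparg* (0.97). *Chpt1* was most like *Anxa4* (0.94), *Hsd17b10* (0.94) and *Lima1* (0.93). For *Chkb* the nearest gene was *Gm44502* (0.99), which shares its exons and reads, followed by *Urod* (0.92) and *Gch1* (0.92).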

How the data were processed

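RNA was extracted with TRIzol and sequenced from a stranded mRNA kit (TruSeq), per the labels' protocols. Reads were aligned to mm10 with STAR 2.6.1c, per the submitters' processing notes. Per the file headers, the authors counted them with HOMER over exons of GENCODE vM25, on both strands, with 1 transcript per gene and no adjustment. The deposited values are estimated counts, in steps of 0.5, as the authors' counting made them. They were rounded to whole numbers, which changed library totals by at most 0.0533%.

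Each of the 3 tables was fitted alone with edgeR 4.0.16 (R 4.3.3): filterByExpr, TMM factors (0.979 to 1.02), group means over all groups of the table and the robust quasi-likelihood F test, with Benjamini-Hochberg adjustment over all tested genes and a threshold of 0.05. SEs come from the fit. The 95% intervals use the SE and the normal quantile, which leaves out the fit's few degrees of freedom and makes them too narrow. For *Chkb* with p53WT against vector the interval was 0.005 to 0.398, while the unadjusted p of the F test was 0.0613. CPM use TMM library sizes, and CPM per kb the transcript length of the file. The columns of KPsh off-dox libraries and those of the cDNA groups carry other names than the labels and were matched as the only remaining group of their table. Replicate numbers were not used to pair libraries. The p-values set a difference against a spread between libraries that was estimated over all groups of its table. The labels do not say whether replicates came from separate cultures, so this spread may not cover that between cultures. All 15 replicate pairs differed by more than sampling noise. Fits were checked on simulated counts.

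Overlaps and transcript types were read from GENCODE vM21 of the same build, whose coordinates match those of the files for all 7 transcripts. Promoters are RefSeq's (GRCm38.p6). The 7 members, the lists and the rule for named genes (called list members with a mean of at least 5 CPM, up to 4 a comparison, in the KPsh, p53WT and fixed-doxycycline *Pcyt2* comparisons, and for likeness the 3 nearest genes at that level) were chosen with earlier results of these data known. Alternatives were other scalings, no low-count filter, unrounded counts, only the compared groups, a replicate block, DESeq2 1.42.0 and leaving out each library.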

Additional observations from a re-analysis of the deposited data

Results flagged for a closer look

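In the *Pcyt2* set the off-dox against on-dox change of 4 members differed between sgPcyt2 and sgPcyt2+Pcyt2-cDNA cells by the interaction test. The difference on the log2 scale was 1.40 for *Chpt1*, 0.61 for *Slc44a1*, −0.36 for *Slc44a2* and −2.90 for *Pcyt1b*, the last from 0 to 31.5 counts a library. *Pcyt1b* passed the filter there only through its sgPcyt2 on-dox libraries.

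*Slc44a1* was higher off-dox in the *Pcyt2* set and not in KPsh cells. After 10 days in KPsh cells its log2 change was −0.12, not past the threshold. The off-dox libraries there were lower by a narrow margin, with the highest at 76.97 CPM and the lowest on-dox library at 77.03 CPM. After 6 days *Slc44a1* was higher in all off-dox libraries in sgPcyt2 cells (1.44) and in sgPcyt2+Pcyt2-cDNA cells (0.83). *Pcyt1b* was higher in all KPsh off-dox libraries (1.20) and lower in all sgPcyt2 off-dox libraries (−3.07). These differences between tables were not tested.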

How the results depend on the processing

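Of the 13 counts of called members, 4 changed by more than 1.5 times under some alternative. TAD12m against vector, 1 call, gave 0 with only the compared groups fitted and 0 to 1 with a library left out. TAD1m against vector, 3 calls, gave 0 to 3 with a library left out. sgPcyt2 against sgPcyt2+Pcyt2-cDNA gave 4 calls on-dox, 2 with DESeq2 and 2 to 3 with a library left out, and 5 calls off-dox, 3 with DESeq2 and 2 to 4 with a library left out. No change reversed its direction while called. Of single genes, 51 calls were lost and 7 gained in some alternative, 41 of these 58 on leaving out a library. Where that leaves a group with 1 library, the lone library is assumed to vary like the other groups. The causes were not tested.

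Replicate numbers were not found to pair the libraries. Same-numbered KPsh libraries deviated against each other (r between −0.148 and −0.142 in the 3 pairs). In the KPnull table r ran from −0.317 (p53WT with TAD12m) to 0.482 (vector with TAD12m), and in the *Pcyt2* table from −0.0878 to 0.0116. With a replicate block the KPsh comparison called 4 members in place of 5, losing *Chkb*. The block left every other count of called members at its value. With the numbers crossed in p53WT and TAD2m, chosen after seeing the data, the counts were 4, 5 and 5 in p53WT against vector, TAD2m against vector and TAD12m against p53WT, as without it.

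Over all genes, TAD2m against p53WT called 43 genes, 107 without a filter, 99 with only its groups and 13 to 23 with a library left out. TAD12m against vector called 580, 160 with only its groups, and 352 or 382 without vector replicate 1 or 2. DESeq2 called 1572 in place of 2746 on-dox, 3116 in place of 4944 off-dox and 2426 in place of 3759 for the interaction, and without cDNA on-dox replicate 2 the on-dox count was 1680. Group CPM moved by at most 2.00% with plain totals. *Pcyt1b* had the fewest counts of the members, 0 to 31.5 a library. The part of depth in the calls of the other members was not tested.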
